A study of Mus musculus with 9 samples.

Results

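The genes described here carry the purinergic system of γδ T cells: the surface enzymes that turn ATP into adenosine, the proteins that remove adenosine, and the receptors that sense these molecules. The members were named by function as 10 genes, with earlier results of these data known. Each was read from the array row whose only gene symbol it is. Of these, 8 had such a row, 1 row each, among 22180 genes measured, and the adenosine receptor genes Adora2a and Adora2b are not analysed here. The study measured RNA of sorted γδ T cells of C57BL/6 mice on Affymetrix gene arrays, with 3 subsets of 3 arrays, 9 in all. One subset, the intraepithelial lymphocytes (IELs), lives in the gut lining, and its sample codes point to the small intestine. The Naive-like and Type-1 subsets were taken from peripheral lymph nodes, so tissue and subset differ together in every comparison with IELs. No genotype other than the strain, no treatment and no age is given for the animals. The replicates are described as biological, but whether an array holds cells of 1 animal or of several is not given, and p-values here cover the spread between these samples only.

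ATP that leaves a damaged or activated cell is a danger signal, which P2X channels and P2Y receptors detect. CD39, encoded by Entpd1, cuts ATP and ADP down to AMP, and CD73, encoded by Nt5e, cuts AMP to adenosine, which damps T cell activation through receptors that raise cyclic AMP. Both enzymes are known as surface proteins of regulatory and of tissue-resident T cells. The staining panel in the labels held antibodies against CD39 and CD73. The sources used here do not give the sort gates, so whether the subsets were selected on either protein is unknown, and its part in the differences of Entpd1 and Nt5e was not tested.

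The labels were set against marker genes first. The 6 T cell genes with a row, among them Cd3e and Cd3g, averaged 10.31 to 11.04 on the log2 scale over the 9 arrays, while the γδ receptor constant genes are not analysed here. All 7 type 1 markers, including Tbx21, Ifng and Cxcr3, rose in Type-1 against Naive-like cells, where 0.212% of all genes rose. They were not particular to Type-1 cells: in IELs against Naive-like cells 5 of the 7 also rose and 1, Eomes, fell. Between IELs and Type-1 cells, Ifng was higher in IELs, and Eomes, Klrk1 and Klrb1c were lower. Of 5 naive markers with a row, 5 fell in IELs against Naive-like cells, where 1.62% of all genes fell. None passed the test between Type-1 and Naive-like cells, where 0.284% of all genes passed. At an unadjusted p under 0.05 there were 3 naive markers, where 6.48% of all genes reached that level. Of those 3, Ccr7 (-0.73) and Lef1 (-0.87) were lower in Type-1 cells and Il7r (0.77) was higher. Intestinal epithelial genes were also present in the IEL arrays. Of 28, 17 rose against Naive-like cells and 15 against Type-1 cells, where 3.57% and 3.73% of all genes rose. Fabp2, Dmbt1 and Cdh1 led the epithelial list in the first of these comparisons. The mean log2 value of this list was 5.40 to 6.05 in IELs, 4.01 to 4.17 in Naive-like cells and 3.96 to 4.23 in Type-1 cells. Of 7 B cell markers none passed in any comparison, and of 10 myeloid markers 1 did, Itgam, which rose in IELs. Over all genes 5.19% passed for IELs against Naive-like and 5.14% against Type-1 cells, so few calls are likely in lists this short. A test of differences also cannot show that such cells are absent from every subset. Gene means in IELs ran from 2.88 to 6.47 for the B cell list and from 2.64 to 6.12 for the myeloid list. Over all genes, Pearson's r was 0.947 to 0.982 within a subset and 0.912 to 0.975 between subsets.

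Promoter sequence is shown for the genes that differ most and for a neighbour that does not, because Entpd1, Nt5e and P2rx7 were all high on the IEL arrays. The windows run from 250 bases before to 50 bases after a RefSeq start in build GRCm38.p6, printed 5′ to 3′ along the gene. They lie at chr19:40612116-40612415 for the upstream start of Entpd1 (plus strand), chr9:88327359-88327658 for Nt5e (plus strand), chr5:122643677-122643976 for the upstream start of P2rx7 (plus strand), chr5:122707294-122707593 for P2rx4 (plus strand) and chr2:62412182-62412481 for Dpp4 (minus strand). Capitals mark matches on either strand to 5 motifs: the GC box GGGCGG, the hypoxia-inducible factor core ACGTG, the aryl hydrocarbon receptor core GCGTG, the cyclic AMP response core TGACG and the RUNX core TGTGGT.
Entpd1: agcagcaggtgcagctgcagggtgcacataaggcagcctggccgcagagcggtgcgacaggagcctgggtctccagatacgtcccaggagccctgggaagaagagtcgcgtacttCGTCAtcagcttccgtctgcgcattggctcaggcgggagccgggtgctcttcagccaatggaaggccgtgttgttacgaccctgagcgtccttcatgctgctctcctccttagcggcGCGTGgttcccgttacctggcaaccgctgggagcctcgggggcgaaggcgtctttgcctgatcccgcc
Nt5e: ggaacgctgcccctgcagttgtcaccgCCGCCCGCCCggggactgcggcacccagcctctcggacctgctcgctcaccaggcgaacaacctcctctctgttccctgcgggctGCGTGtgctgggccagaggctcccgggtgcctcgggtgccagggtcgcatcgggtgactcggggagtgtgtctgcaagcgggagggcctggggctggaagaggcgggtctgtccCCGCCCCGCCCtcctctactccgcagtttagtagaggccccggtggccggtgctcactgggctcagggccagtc
P2rx7: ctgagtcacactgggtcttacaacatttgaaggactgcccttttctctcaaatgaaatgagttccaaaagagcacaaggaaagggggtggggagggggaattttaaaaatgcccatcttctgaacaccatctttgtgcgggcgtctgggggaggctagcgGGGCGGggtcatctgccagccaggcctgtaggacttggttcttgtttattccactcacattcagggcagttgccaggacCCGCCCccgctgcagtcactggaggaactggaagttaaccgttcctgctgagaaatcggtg
P2rx4: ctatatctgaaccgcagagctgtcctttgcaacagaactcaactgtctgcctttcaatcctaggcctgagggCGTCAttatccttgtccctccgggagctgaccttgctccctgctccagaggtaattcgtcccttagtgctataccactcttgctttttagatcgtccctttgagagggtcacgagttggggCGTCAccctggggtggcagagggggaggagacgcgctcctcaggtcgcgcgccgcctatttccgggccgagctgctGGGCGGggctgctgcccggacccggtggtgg
Dpp4: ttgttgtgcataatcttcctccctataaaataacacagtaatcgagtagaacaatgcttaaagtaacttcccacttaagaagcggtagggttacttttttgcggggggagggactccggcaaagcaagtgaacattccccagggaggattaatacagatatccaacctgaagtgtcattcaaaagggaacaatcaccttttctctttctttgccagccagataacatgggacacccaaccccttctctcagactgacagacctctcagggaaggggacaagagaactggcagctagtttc

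No motif of the 5 was in all 3 windows of Entpd1, Nt5e and P2rx7. Nt5e held 4 GC boxes, which overlap in pairs, and 1 GCGTG; P2rx7 held 2 GC boxes; Entpd1 held 1 GCGTG and 1 TGACG. P2rx4 held 1 GC box and 2 TGACG, and Dpp4 none of the 5. Among 32851 promoter windows of that length, 35.7% held GGGCGG, 19.6% ACGTG, 32.4% GCGTG, 20.8% TGACG and 16.8% TGTGGT. The GC content was 71.0% for Nt5e and 45.3% for Dpp4, against a median of 52.7% over all windows. Entpd1 and P2rx7 each have 2 RefSeq windows, and an array row does not say which start its transcripts used. These matches describe letters, not binding.

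The first comparison asked how the purinergic genes of intestinal IELs differ from those of Naive-like lymph node cells. Both enzymes of the ATP-to-adenosine route were higher in IELs, and so was the ATP-gated channel gene P2rx7, while Dpp4 was lower. Of the 8 members, 4 rose and 1 fell in the limma test at an adjusted p under 0.05 over all genes, where 5.19% of all genes passed, 3.57% upward and 1.62% downward. The same members, in the same directions, passed between IELs and Type-1 cells, where 5.14% of all genes passed, 3.73% upward and 1.41% downward; these comparisons share the IEL arrays. The test over all 3 subsets was passed by 5 members and by 5.41% of all genes. The median difference of the 8 members was 0.79 against Naive-like and 1.00 against Type-1 cells, and that of all genes -0.005 and -0.034. Because the members were chosen with earlier results of these data known, setting them beside all genes is not a test of the set. Between Type-1 and Naive-like cells no member passed, against 0.284% of all genes, 0.212% upward and 0.0721% downward. At an unadjusted p under 0.05 there were 3 members in that last comparison, Nt5e, Dpp4 and P2rx7, where 6.48% of all genes reached that level, against 14.2% for IELs and Naive-like cells and 16.3% for IELs and Type-1 cells. The arrays of IELs and Naive-like cells did not overlap for 5 members, as for 20.1% of all genes, those of IELs and Type-1 cells for 6 members, as for 19.8%, and those of the lymph node subsets for 3 members, as for 11.4%.

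**Figure D1:**
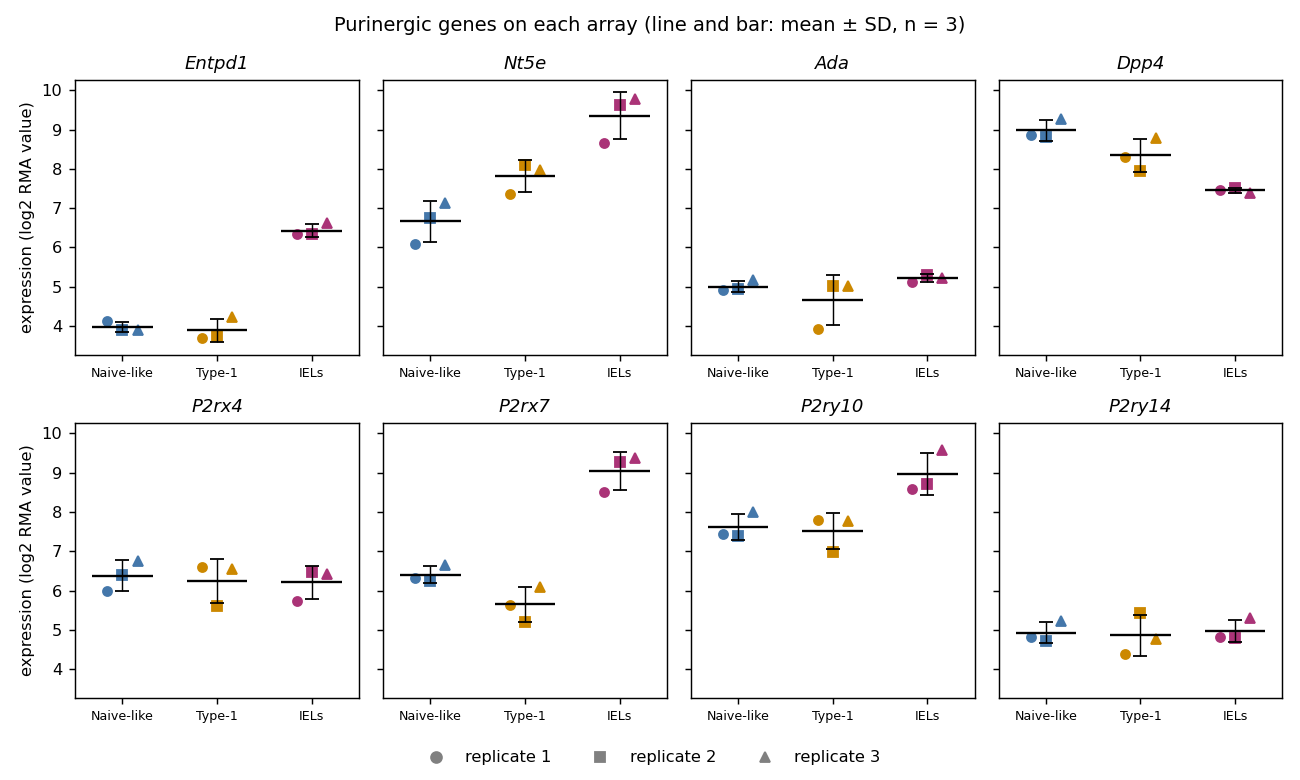
Log2 RMA value (vertical axis, shared) of the 8 members in each subset (horizontal axis); each symbol is 1 array, coloured by subset and shaped by replicate, and lines with bars are the mean ± SD of 3 arrays. IELs stood above both lymph node subsets for Entpd1 (6.33 to 6.63), Nt5e, P2rx7 and P2ry10, and below them for Dpp4, while the subsets overlapped for P2rx4 and P2ry14.

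Entpd1, the gene of CD39, was high in IELs and low in both lymph node subsets. It read 6.33, 6.34 and 6.63 on the 3 IEL arrays, 4.13, 3.90 and 3.91 on the Naive-like arrays, and 3.69, 3.75 and 4.23 on the Type-1 arrays. Every IEL array lay more than 2 log2 units above every lymph node array, and the 2 lymph node subsets overlapped. The difference was 2.45 ± 0.21 (SE; adjusted p = 1.5e-05), or 5.47-fold, against Naive-like cells, and 2.54 ± 0.21 (adjusted p = 1.4e-05), or 5.83-fold, against Type-1 cells, by limma. Between Type-1 and Naive-like cells it was -0.09, with a 95% interval from -0.54 to 0.36. The lymph node values of Entpd1 lay under the median of all gene means, 4.52, so they may be near background, for which the table holds no call. In bulk RNA, a larger share of cells with the transcript and more transcript per cell cannot be told apart.

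Nt5e, the gene of CD73, formed a graded series across the subsets. It read 8.67, 9.62 and 9.77 in IELs, 7.35, 8.11 and 7.97 in Type-1 cells, and 6.08, 6.75 and 7.13 in Naive-like cells. No array of one subset overlapped another subset, and the nearest pair was Type-1 replicate 1 at 7.35 and Naive-like replicate 3 at 7.13. The difference between IELs and Naive-like cells was 2.70 ± 0.34 (adjusted p = 0.00037), a 6.49-fold higher level. Against Type-1 cells it was 1.55 ± 0.34 (adjusted p = 0.02), or 2.92-fold, a limma call that was lost without IELs replicate 2 (adjusted p = 0.095), IELs replicate 3 (adjusted p = 0.1) or Type-1 replicate 1 (adjusted p = 0.075). Between Type-1 and Naive-like cells the difference of 1.15 ± 0.34 did not pass (adjusted p = 0.41), with a 95% interval from 0.41 to 1.90. In every subset replicate 1 gave the lowest Nt5e value.

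Of a list of 16 ectonucleotidase genes that includes Entpd1 and Nt5e, 12 had a row. In IELs against Naive-like cells 3 of them rose and none fell, where 5.19% of all genes passed, 3.57% upward. The one beside Entpd1 and Nt5e was Alpi, the intestinal alkaline phosphatase of the enterocyte brush border. Alpi read 4.69, 6.88 and 5.11 in IELs, and was higher by 1.71 ± 0.43 (adjusted p = 0.038) against Naive-like cells. Against Type-1 cells its difference of 1.38 ± 0.43 did not pass (adjusted p = 0.1). Its highest value fell on IELs replicate 2, the array on which the epithelial list also had its highest mean, 6.05, against 5.40 on each of the others. The leading epithelial genes differed in this. Dmbt1 (7.52) and Cdh1 (9.28) were highest on replicate 2, but Fabp2 was highest on replicate 1, at 8.26, 7.42 and 6.52 on the 3 IEL arrays. Ada, Dpp4 and P2rx4 had their highest IEL value on replicate 2, Entpd1, Nt5e, P2rx7 and P2ry10 their middle value and P2ry14 its lowest. The part of epithelial RNA in the differences of Alpi and the members was not tested. Entpd7, a family member of intracellular membranes, rose against Type-1 cells (1.41 ± 0.36, adjusted p = 0.042) and was 0.62 ± 0.36 higher than in Naive-like cells without passing (adjusted p = 0.53). The other 8 genes of the list with a row passed in no comparison.

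**Figure D2:**
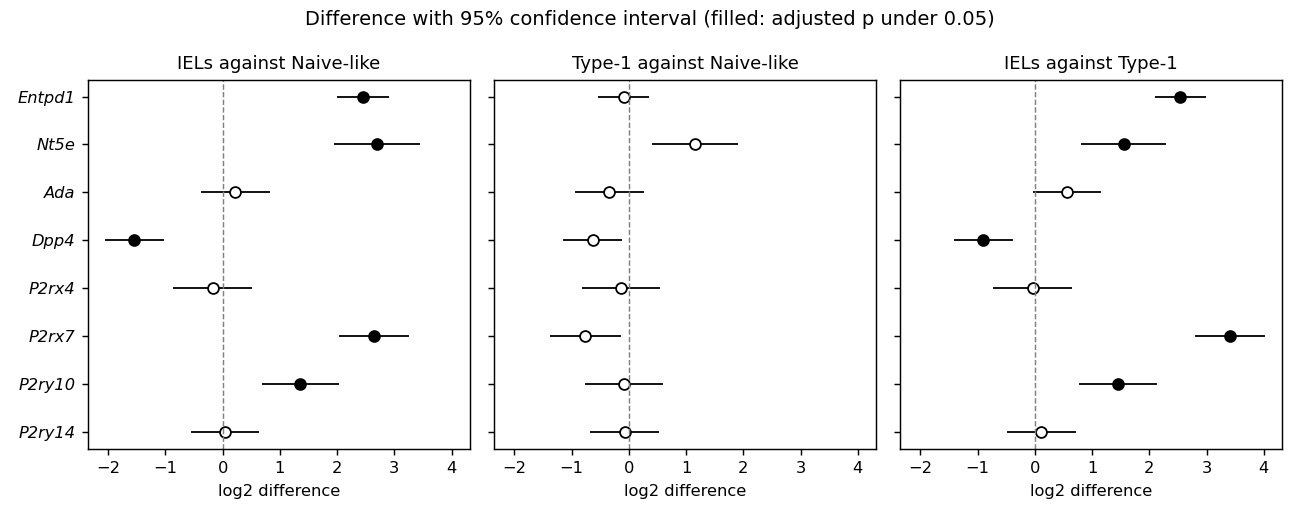
Log2 difference (horizontal axis) of the 8 members (rows) in the 3 pairwise comparisons, with 95% confidence intervals from the limma fit; filled points have an adjusted p under 0.05 over all genes. Entpd1, Nt5e, P2rx7 and P2ry10 were filled to the right and Dpp4 to the left in both comparisons with IELs, and no point was filled for Type-1 against Naive-like cells.

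Adenosine is removed by adenosine deaminase, which converts it to inosine, and by adenosine kinase, which returns it to AMP. Ada, the deaminase gene, read 5.12, 5.31 and 5.23 in IELs, 4.92, 4.94 and 5.16 in Naive-like cells, and 3.93, 5.03 and 5.03 in Type-1 cells. The low value was Type-1 replicate 1. The difference between IELs and Naive-like cells was 0.22, with a 95% interval from -0.38 to 0.82, and between IELs and Type-1 cells 0.56, from -0.04 to 1.16; neither passed (adjusted p = 0.85 and 0.35), although the IEL and Type-1 arrays did not overlap. Without Type-1 replicate 1 the Ada difference between IELs and Type-1 cells was 0.19.

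Dpp4 encodes CD26, a surface peptidase that trims chemokines and incretins and, in humans, holds adenosine deaminase on the cell surface. It was the 1 member that fell in IELs. It read 7.45, 7.51 and 7.38 in IELs, 8.87, 8.80 and 9.28 in Naive-like cells, and 8.31, 7.95 and 8.79 in Type-1 cells. The subsets did not overlap, although the top Type-1 array, 8.79, lay next to the lowest Naive-like array, 8.80. Dpp4 fell by 1.54 ± 0.24 on the log2 scale (adjusted p = 0.0016) against Naive-like cells. Against Type-1 cells the limma difference was -0.90 ± 0.24 (adjusted p = 0.047), which passed on removal of 1 array, Type-1 replicate 2, and was lost on removal of each of the other 8, at an adjusted p up to 0.16. This call was also lost after subtracting array medians (adjusted p = 0.095) and with trend and robust spread (adjusted p = 0.061). Fitting only the subsets compared (adjusted p = 0.086), the arrays without the code (adjusted p = 0.24) or a minimum difference of 1 ended it too. Dpp4 is also a brush border enzyme of enterocytes. Its highest IEL value, 7.51, was on replicate 2, which had the highest epithelial mean, although the epithelial gene Fabp2 was highest on replicate 1. The part of epithelial RNA in the Dpp4 values was not tested.

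Of 15 genes for adenosine removal and nucleoside transport, all with a row, none rose in IELs against Naive-like cells. There 2 fell, Dpp4 and Ampd3, where 1.62% of all genes passed downward. Neither encodes an enzyme that acts on adenosine itself, and Ada did not pass. Ampd3, which deaminates AMP inside the cell and so takes it away from adenosine formation, read 4.61, 4.62 and 4.51 in IELs against 5.74, 5.67 and 5.82 in Naive-like cells. It fell by 1.16 ± 0.20 (adjusted p = 0.0037), and by 1.24 ± 0.20 (adjusted p = 0.0027) against Type-1 cells. Adk, the adenosine kinase gene, was lower in IELs by -1.10 ± 0.28 against Type-1 cells (adjusted p = 0.043) and by -1.04 ± 0.28 against Naive-like cells, where it missed the threshold (adjusted p = 0.056). Pnp, the gene of the phosphorylase that splits inosine, missed it in the other direction, with an IEL mean 1.00 ± 0.27 above the Naive-like mean (adjusted p = 0.058). The transporter gene Slc28a2, a concentrative nucleoside carrier, had mean values of 9.03, 8.59 and 8.50 in IELs, Naive-like and Type-1 cells and did not pass.

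P2rx7 encodes the ATP-gated channel that at high ATP leads to membrane pores, shedding of surface proteins and death of T cells. It read 8.51, 9.28 and 9.37 in IELs, 6.33, 6.24 and 6.65 in Naive-like cells, and 5.64, 5.21 and 6.09 in Type-1 cells. The 3 subsets did not overlap in any pair, with IELs highest and Type-1 cells lowest. P2rx7 was higher in IELs by 2.65 ± 0.28 (adjusted p = 9.7e-05), or 6.26-fold, against Naive-like cells. Against Type-1 cells the difference was 3.40 ± 0.28 (adjusted p = 1.7e-05), or 10.6-fold, the largest of any member in any comparison. Between the lymph node subsets it was -0.76 ± 0.28 (adjusted p = 0.62), with an interval from -1.37 to -0.14.

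P2rx4 lies next to P2rx7 on chromosome 5 with no other protein-coding gene between them, and encodes a more sensitive ATP-gated channel. It read 5.73, 6.48 and 6.43 in IELs, 5.99, 6.41 and 6.76 in Naive-like cells, and 6.60, 5.60 and 6.56 in Type-1 cells. All subsets overlapped. The difference between IELs and Naive-like cells was -0.17, with an interval from -0.86 to 0.51, and that between IELs and Type-1 cells -0.04, from -0.73 to 0.64. Of the 7 P2X genes, all with a row, P2rx7 was the 1 that passed in either comparison with IELs, and none passed between the lymph node subsets. Over all genes 5.19% passed for IELs against Naive-like and 5.14% against Type-1 cells, and 0.284% between the lymph node subsets.

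P2ry10 bears a purinergic name, but the receptor it encodes is known to respond to lysophosphatidylserine, a lipid exposed and released by activated and dying cells. It read 8.59, 8.72 and 9.59 in IELs, 7.43, 7.39 and 7.99 in Naive-like cells, and 7.80, 6.98 and 7.77 in Type-1 cells. The IEL arrays lay above all lymph node arrays, which overlapped each other. The limma difference was 1.36 ± 0.31 (adjusted p = 0.022), or 2.57-fold, against Naive-like cells, and 1.45 ± 0.31 (adjusted p = 0.016), or 2.74-fold, against Type-1 cells. The first call was lost without IELs replicate 3 (adjusted p = 0.098), Naive-like replicate 1 (adjusted p = 0.099) or Naive-like replicate 2 (adjusted p = 0.09), or after subtracting array medians (adjusted p = 0.056). The second was lost without IELs replicate 3 (adjusted p = 0.074) or Type-1 replicate 2 (adjusted p = 0.066).

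The other receptors for the same lipid, Gpr34 and Gpr174, moved in opposite directions. Gpr34 read 8.23, 8.22 and 8.33 in IELs against 4.53, 4.51 and 4.72 in Naive-like and 4.43, 4.26 and 4.63 in Type-1 cells. Gpr34 was higher in IELs by 3.68 ± 0.18, or 12.8-fold, and 3.82 ± 0.18, or 14.1-fold, and had the largest difference among the 55 pathway genes with a row in both comparisons. Gpr174, a receptor of lymphocytes, read 5.36, 5.10 and 5.94 in IELs, 6.88, 6.99 and 6.72 in Naive-like cells, and 7.68, 7.54 and 7.88 in Type-1 cells. Gpr174 fell in IELs by 1.40 ± 0.23 (adjusted p = 0.0029) against Naive-like cells and by 2.23 ± 0.23 (adjusted p = 9.6e-05) against Type-1 cells. P2ry10b, the gene beside P2ry10 on the X chromosome and its close relative, did not pass, at 0.52 ± 0.27 (adjusted p = 0.44) against Naive-like cells. How far the probes of P2ry10 and P2ry10b share sequence is not given in the sources used here.

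**Figure D3:**
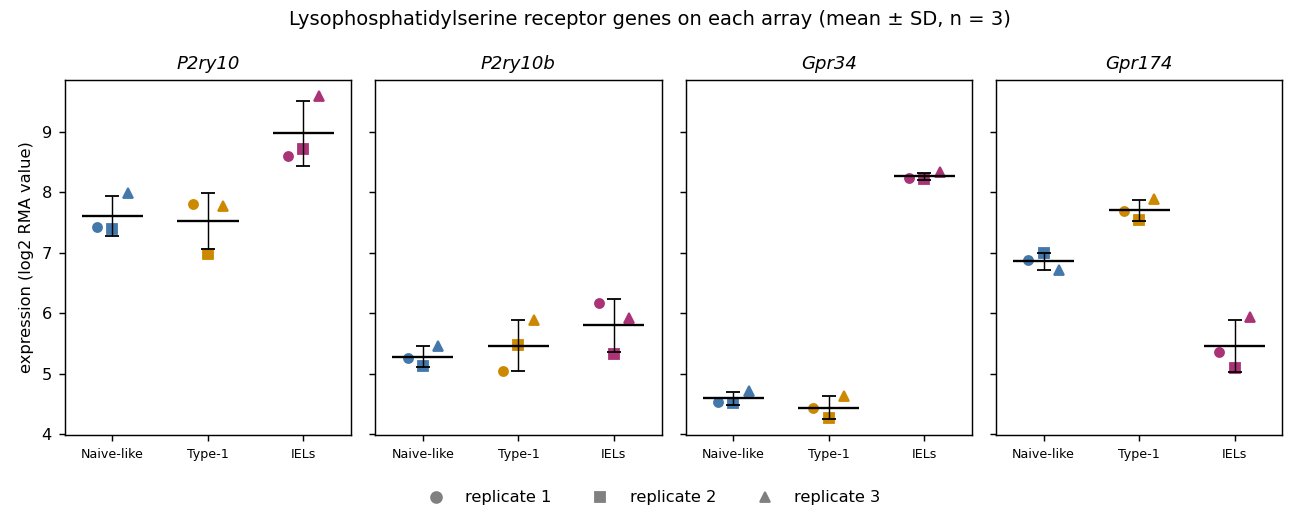
Log2 RMA value (vertical axis, shared) of 4 lysophosphatidylserine receptor genes in each subset (horizontal axis); each symbol is 1 array, and lines with bars are the mean ± SD of 3 arrays. Gpr34 stood at 8.22 to 8.33 in IELs with all lymph node arrays under 5, while Gpr174 was lowest in IELs.

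P2ry14, a receptor for UDP-glucose, read 4.81, 4.80 and 5.30 in IELs, 4.83, 4.73 and 5.23 in Naive-like cells, and 4.39, 5.43 and 4.76 in Type-1 cells. The subsets overlapped throughout, and the difference between IELs and Naive-like cells was 0.04, with an interval from -0.56 to 0.64. Replicates of Type-1 cells differed among themselves by more than any pair of subset means. Of the 11 P2Y and related receptor genes, all with a row, 2 rose and 1 fell in IELs against each lymph node subset, namely P2ry10 and Gpr34 up and Gpr174 down. The share of all genes that passed was 5.19% against Naive-like and 5.14% against Type-1 cells. Adora3 was the only adenosine receptor gene with a row, and it had means of 3.30, 3.38 and 3.38 in IELs, Naive-like and Type-1 cells.

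The whole list held 66 genes of nucleotides, adenosine and related receptors, and 55 had a row. In IELs against Naive-like cells 6 rose and 4 fell, members included, where 5.19% of all genes passed, 3.57% upward and 1.62% downward. These called genes include P2ry10, Gpr34 and Gpr174, whose receptors respond to lysophosphatidylserine, and Ampd3, which acts inside the cell. Without the members the counts were 2 up and 3 down of 47, and the median difference was -0.01. Against Type-1 cells they were also 2 up and 3 down of 47, with a median of 0.06. In that comparison 3.73% of all genes rose and 1.41% fell. Between Type-1 and Naive-like cells 1 gene of the list passed, where 0.284% of all genes passed. It was Art4, which encodes an ADP-ribosyltransferase-family surface protein. Art4 read 7.53, 7.64 and 8.00 in Naive-like cells, 6.17, 6.37 and 6.61 in Type-1 cells, and 6.66, 6.28 and 6.46 in IELs. Its arrays in Naive-like cells lay above all others; it fell by 1.34 ± 0.21 (adjusted p = 0.016) in Type-1 cells and by 1.26 ± 0.21 (adjusted p = 0.0031) in IELs, relative to Naive-like cells. The Type-1 call was lost without Naive-like replicate 2 or 3 and without Type-1 replicate 1 or 2. The channel genes through which ATP can leave cells, Panx1, Panx2 and Panx3, and the vesicular nucleotide transporter gene Slc17a9 did not pass.

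**Figure D4:**
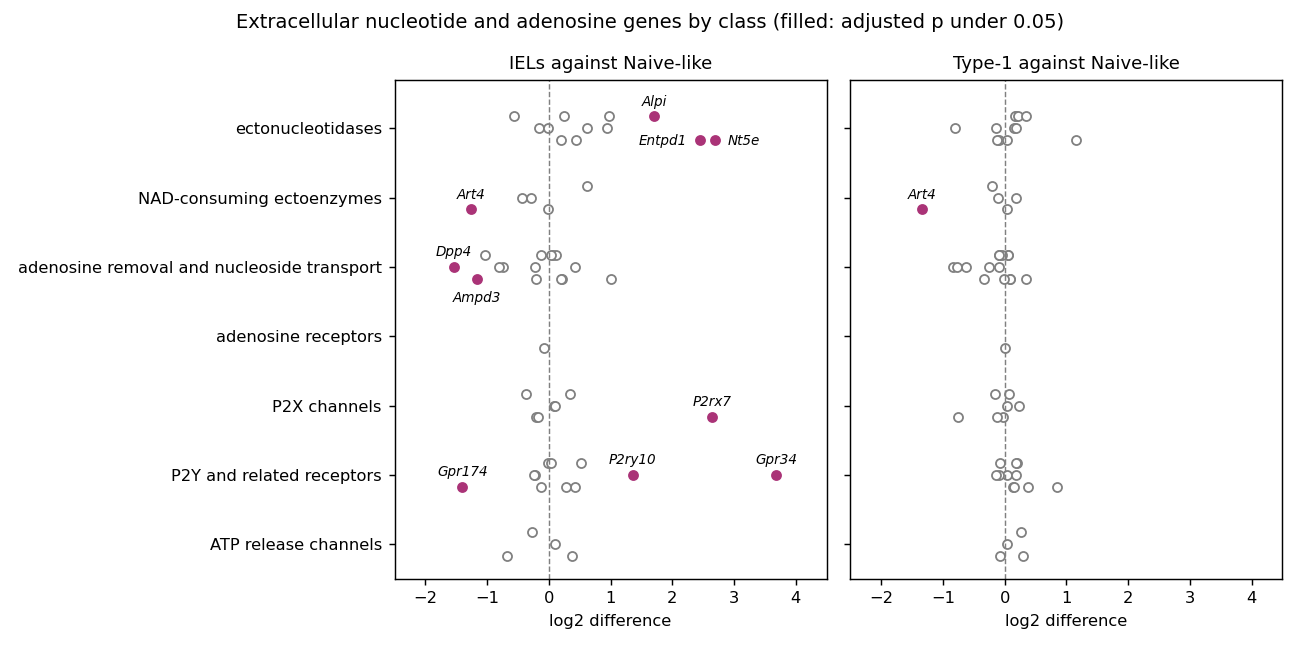
Log2 difference (horizontal axis) of the 55 pathway genes with a row, by class (rows), in IELs (left) and Type-1 cells (right) against Naive-like cells; each point is 1 gene, and filled, named points have an adjusted p under 0.05. In IELs 6 genes rose and 4 fell, whereas Art4 was the single filled point in Type-1 cells. The filled points in IELs include the lysophosphatidylserine receptor genes P2ry10, Gpr34 and Gpr174 and the intracellular Ampd3.

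CD39 and CD73 are best known from regulatory T cells, so the markers of those cells were read on the same arrays. Foxp3, their defining transcription factor gene, had means of 3.98, 4.34 and 4.22 in IELs, Naive-like and Type-1 cells, under the median of all gene means, and Cd4 had 3.49, 3.67 and 3.75. The list of 6 genes covers αβ T and regulatory T cells. In IELs 1 passed against Naive-like and 3 against Type-1 cells, all upward, where 5.19% and 5.14% of all genes passed. By sign 3 were higher and 3 lower in each comparison. Il2ra was lower in IELs, by -0.55 ± 0.21 and -0.45 ± 0.21, without passing (limma adjusted p = 0.23 and 0.33). Its IEL arrays lay below all lymph node arrays. Ctla4, an inhibitory receptor gene, rose in IELs by 2.65 ± 0.32 against Naive-like cells (adjusted p = 0.00026). Ikzf2, which encodes Helios, rose by 1.73 ± 0.29 against Type-1 cells (adjusted p = 0.0032) and was 0.92 ± 0.29 higher than in Naive-like cells without passing (adjusted p = 0.11). Ikzf4 rose by 0.99 ± 0.22 against Type-1 cells (limma adjusted p = 0.02). Its difference of 0.60 ± 0.22 against Naive-like cells did not pass (adjusted p = 0.19).

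Across the 9 arrays, the pattern of Entpd1 was most like that of Abcb1a, Gpr34, Rnf149, Itgad and Tigit among 10178 genes, with Pearson's r from 0.991 to 0.995. Abcb1a, which encodes a drug efflux pump, had means of 9.82, 6.50 and 6.27 in IELs, Naive-like and Type-1 cells. Nt5e was closest to Atmin, Sla, Ttc39b, Chsy1 and Slc25a24, at r from 0.969 to 0.979. Chsy1, a chondroitin sulfate synthase gene, had means of 9.08, 7.09 and 7.98, the same order of subsets as Nt5e. All such correlations rest on the same 9 arrays in 3 subsets, and many genes separate IELs from the rest.

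Replicate 3 of every subset has a code in its description that the other arrays lack, and deviations from the subset means correlated between these 3 arrays at 0.229 to 0.382. With the code as a term, 5 members passed between IELs and either lymph node subset and 0 between the lymph node subsets, as without it. Between the coded arrays alone, single arrays without replication, Entpd1, Nt5e, P2rx7 and P2ry10 exceeded the Naive-like array by 2.71, 2.64, 2.72 and 1.60, and Dpp4 differed by -1.90. Against Type-1 cells the coded arrays gave 2.40, 1.80, 3.28 and 1.82 for those 4 genes and -1.41 for Dpp4. Within the 6 arrays without the code, 4 members passed against Naive-like cells, without P2ry10 (1.24, adjusted p = 0.094), and 2 against Type-1 cells, Entpd1 (2.62, adjusted p = 0.0013) and P2rx7 (3.47, adjusted p = 0.0016).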

How the data were processed

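The authors deposited log2 values of 41345 features on each of 9 arrays, and the submitters' processing notes name oligo and RMA as the means; no version, filter or genome build was found there. RMA normalizes arrays to each other and compresses differences of dim genes, and the table has no detection calls. GEO's platform annotation supplied gene symbols: 23521 features had 1 symbol, 1814 several and 16010 none. Keeping the feature with the highest mean for each symbol left 22180 genes. Groups came from the sample titles. All differences are two-sided limma 3.58.1 contrasts (R 4.3.3; lmFit, then eBayes without trend) from a model of the 3 subset means. P-values were adjusted by Benjamini-Hochberg across the 22180 genes and called at 0.05. There were 6 residual degrees of freedom, and the script was tested on simulated data. Over all genes the standard errors of the differences had a median of 0.24, and the number of arrays limits the precision.

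Members and gene lists were chosen with earlier results of these data known. The genes named were all members; of the pathway and cyclic AMP lists every gene that passed in a pairwise comparison (at most 12 a comparison), or the 2 with the largest difference where none passed; up to 4 genes of a marker list; and for Entpd1 and Nt5e the 5 genes of highest Pearson's r among those with a mean above the median of all genes and no predicted, non-coding or receptor segment name. Slc28a2, Pnp, P2ry10b, Adora3, the ATP release genes, Foxp3, Cd4, Il2ra, Cd3e, Cd3g, Ccr7, Lef1, Il7r, Tbx21, Ifng and Cxcr3 were named outside this rule, after their values were seen. So were Eomes, Klrk1 and Klrb1c. Rows of list genes without a single symbol were not used. Same-numbered replicates deviated together at -0.015 to 0.382, so the numbers were not taken as pairs. The sample descriptions also group the arrays into sets, which cross the replicate numbers except for replicate 3. Arrays of the same description set deviated together at 0.073 to 0.382. The main fit had no term for these sets. With the set as a block 5, 0 and 5 members passed for IELs over Naive-like, Type-1 over Naive-like and IELs over Type-1 cells. Alternatives were removal of genes whose mean was under percentile 40, other normalizations, trend with robust spread, array weights, other uses of a gene's rows, a minimum difference of 1, only the subsets compared, blocks by replicate number, description set or code, the arrays without the code, and each array left out. Promoters came from RefSeq (GRCm38.p6), with windows for all 8 members. Python 3.11.15, pandas 2.3.3, numpy 2.4.6 and matplotlib 3.10.9 were used.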

Additional observations from a re-analysis of the deposited data

How the results depend on the processing

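Entpd1 and P2rx7 kept direction and call in both comparisons with IELs under all 14 alternatives and all 9 removals of 1 array, and Nt5e did so against Naive-like cells. A minimum log2 difference of 1 left 3 members for IELs over Naive-like cells, 0 for Type-1 over Naive-like cells and 2 for IELs over Type-1 cells. In that order it left 4, 0 and 4 of the pathway genes, where 10, 1 and 10 passed without it. The 6 arrays without the code, fewer samples, left 2 members for IELs against Type-1 cells, 3 in the test over all subsets (5 otherwise), and 4 pathway genes for IELs over Type-1 cells and 0 for Type-1 over Naive-like cells. Fitting only the subsets compared left 0 pathway genes in Type-1 against Naive-like cells; the cause was not tested. With the replicate number as a block, 5, 1 and 5 members and 12, 2 and 10 pathway genes passed in the same order; the added member was Nt5e (1.15, adjusted p = 0.034). The replicate numbers are not known to pair samples, and the block ended no member's call. Leaving out 1 array gave 4 to 5, 0 to 0 and 2 to 4 members, with 3 without IELs replicate 2 or Type-1 replicate 1 and 2 without IELs replicate 3 in IELs against Type-1 cells. It gave 8 to 11, 0 to 1 and 6 to 10 pathway genes, with 6 without any of the same 3 arrays.

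The differences that changed sign under some alternative all passed in no fit. With array weights P2rx4 was 0.13 against Naive-like and 0.20 against Type-1 cells in IELs, and P2ry14 was 0.05 in Type-1 against Naive-like cells. Within the arrays without the code P2rx4 was 0.00 and P2ry14 -0.10 in IELs against Type-1 cells, and P2ry14 was 0.13 in Type-1 against Naive-like cells. With cyclic loess P2ry10 was 0.01 in that comparison. Leaving out 1 array, Type-1 against Naive-like differences ran from -0.53 to 0.03 for Ada, -0.26 to 0.01 for Entpd1, -0.33 to 0.19 for P2rx4, -0.23 to 0.18 for P2ry10 and -0.36 to 0.16 for P2ry14. Those of IELs ran from -0.37 to 0.07 for P2rx4 and -0.13 to 0.19 for P2ry14 against Naive-like cells, and from -0.37 to 0.20 and -0.12 to 0.40 against Type-1 cells. No dim value has a measured background.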

Other observations

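Adenosine receptors signal through cyclic AMP, and genes of that pathway were read as a list of 35, 33 of which had a row. In IELs 4 rose and 2 fell against Naive-like cells, and 4 rose and 1 fell against Type-1 cells, with medians of 0.03 and 0.21 and backgrounds of 5.19% and 5.14% of all genes called. Pde2a, a phosphodiesterase gene whose product is switched on by cyclic GMP, read 4.30, 5.43 and 5.29 in IELs, 8.26, 7.37 and 8.24 in Naive-like cells, and 8.48, 8.69 and 9.41 in Type-1 cells. All IEL arrays lay below all lymph node arrays, and Pde2a fell by 2.95 ± 0.35 (limma adjusted p = 0.00026) and 3.85 ± 0.35 (adjusted p = 3.9e-05).

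Pde4a, a cyclic AMP phosphodiesterase gene, went the other way, at 5.42, 5.74 and 5.48 in IELs, 4.30, 4.38 and 3.94 in Naive-like cells, and 3.62, 4.20 and 3.67 in Type-1 cells. It rose by 1.34 ± 0.22 and 1.72 ± 0.22 against these subsets. Crem, a transcription factor gene that cyclic AMP is known to induce, read 6.41, 5.77 and 6.76 in IELs and at most 4.93 on any lymph node array; it rose by 1.50 ± 0.25 (limma adjusted p = 0.003) and 1.70 ± 0.25 (adjusted p = 0.0013). Prkar2a and Pde8a also rose against Naive-like cells, and Prkacb and Pde4b against Type-1 cells. Adcy6, an adenylyl cyclase gene, read 5.81, 6.03 and 6.65 in Naive-like cells and fell by 1.76 ± 0.41 (limma adjusted p = 0.024) in IELs. It was lower by -1.82 ± 0.41 in Type-1 cells without passing (adjusted p = 0.15). Pde2a was 0.90 ± 0.35 higher in Type-1 than in Naive-like cells, also without passing (limma adjusted p = 0.67). No gene of the list passed between Type-1 and Naive-like cells, where 0.284% of all genes passed. There 5 genes of the list had an unadjusted p under 0.05, a level that 6.48% of all genes reached.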
